A study of Mus musculus with 4 samples.

Results

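The 9 miRNAs described here are the 5p arms, other than the miR-17 seed family, of the hairpins in the miR-17 cluster and its paralogues, the miR-106a cluster and the miR-106b cluster. They are mmu-miR-18a-5p, mmu-miR-18b-5p, mmu-miR-19a-5p, mmu-miR-19b-1-5p, mmu-miR-19b-2-5p, mmu-miR-25-5p, mmu-miR-92a-1-5p, mmu-miR-92a-2-5p and mmu-miR-363-5p, written below without the species prefix. They were found by name among 1059 mature miRNAs, and each had a single row of counts. Small RNA came from the rostral-most telencephalic primordium of mouse embryos at E11.5. There were 2 libraries of Rx-Dicer mutants (RxCre-DicerF/F) and 2 libraries of controls, labelled WT and described as DicerF/F in the design text. By that text, mutants and controls share the floxed Dicer allele, and the driver line was kept on a CD1 background and the floxed line on C57BL/6. Cre is driven by regulatory sequences of Rax (Rx), and recombination in this line is uneven across the telencephalon, so tissue of the mutants can hold cells that still have Dicer. The number of embryos per library was not given in the sources used here, so that p-values measure the spread between these libraries. Dicer1 mRNA cannot be read in small RNA counts, and the deletion was not checked here. Totals of the miRNA counts used here were lower in mutants than in controls. They were 651031 (Rx-Dicer 1), 516517 (Rx-Dicer 2), 1299067 (control 1) and 1133553 (control 2). These totals are sums over a single row per mature miRNA and do not measure sequencing depth.

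A miRNA hairpin is cut by Drosha from a primary transcript and then by Dicer into a duplex of a 5p and a 3p arm. Usually a single arm, the guide, is kept in Argonaute, and the other, the passenger strand, is degraded. The miR-17 cluster and its paralogues are induced by MYC and E2F factors and are abundant in proliferating progenitors, including those of the embryonic cortex. Within them, miR-18a and miR-18b are made from the 5p arm, while miR-19, miR-25, miR-92a and miR-363 act as 3p arms, so that their 5p arms are passenger strands. All 6 cluster mates used for comparison, miR-17-5p, miR-20a-5p, miR-106a-5p, miR-20b-5p, miR-106b-5p and miR-93-5p, are guide strands of the miR-17 seed family. The 13 names of 3p arms looked for had 0 rows in the tables used, so the ratio of the arms of a hairpin was not analysed here.

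The mature sequences are shown to group the arms by seed. They were taken from the RefSeq table (GRCm38.p6, which has the coordinates of mm10), which held 7 of the 9 arms and all 6 mates. Each is written 5′ to 3′ with the seed (bases 2 to 8), the part that pairs with target mRNAs, in capitals.

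miR-18a-5p: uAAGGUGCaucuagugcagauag

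miR-18b-5p: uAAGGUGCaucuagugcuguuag

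miR-17-5p: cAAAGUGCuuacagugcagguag

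miR-20a-5p: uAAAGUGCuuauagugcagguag

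miR-20b-5p: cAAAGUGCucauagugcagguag

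miR-25-5p: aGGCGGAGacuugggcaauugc

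miR-92a-1-5p: aGGUUGGGauuugucgcaaugcu

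miR-92a-2-5p: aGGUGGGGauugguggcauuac

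miR-19b-1-5p: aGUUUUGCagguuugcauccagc

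miR-19b-2-5p: aGUUUUGCagauuugcaguucagc

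miR-18a-5p and miR-18b-5p carry the same seed and differ at 2 of 23 bases, so a read with a mismatch could have been counted on either. Their seed differs from that of miR-17-5p at 1 of 7 bases, and over the whole length miR-18a-5p and miR-17-5p differ at 6 of 23. The 5p arms of miR-19b-1 and miR-19b-2 also share a seed. They are 23 and 24 bases long and differ at 7 of 23 positions when compared without gaps, which overstates the difference if a base was inserted. The arms of miR-25, miR-92a-1 and miR-92a-2 each have a seed found on 0 other mature miRNAs of the RefSeq table, and those of miR-92a-1 and miR-92a-2 differ at 5 of 22 bases. All 5 passenger arms shown begin with AG, compared with 0 of the 6 mates, 0 of the miR-18 arms and 12.2% of the 230 tested miRNAs with a RefSeq sequence. The 3p partners of the miR-25, miR-92a and miR-363 arms, shown to make clear which strand is the known guide, share the seed AUUGCAC.

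miR-25-3p: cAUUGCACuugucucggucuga

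miR-92a-3p: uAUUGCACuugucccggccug

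miR-363-3p: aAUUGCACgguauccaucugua

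The genes lie in tight clusters. The 6 hairpins of the miR-17 cluster span 836 bases of chromosome 14, from 115043671 to 115044506 on the plus strand. All of them overlap an exon of the non-coding host transcript Mir17hg. The 6 hairpins of the miR-106a cluster span 875 bases of chromosome X, from 52741693 to 52742567 on the minus strand. Those of miR-106b, miR-93 and miR-25 span 498 bases of chromosome 5, from 138165321 to 138165818 on the minus strand, within Mcm7. There, Mir106b overlaps exons of 0 and Mir25 of 1 of the 10 annotated Mcm7 transcripts. The hairpins of a miR-18 arm and of a passenger arm are shown with the counted 5p arm in capitals, from chromosome 14 (115043851 to 115043946, plus strand) and chromosome 5 (138165321 to 138165404, minus strand).

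Mir18: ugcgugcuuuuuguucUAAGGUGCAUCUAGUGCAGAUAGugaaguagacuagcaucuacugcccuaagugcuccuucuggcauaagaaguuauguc

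Mir25: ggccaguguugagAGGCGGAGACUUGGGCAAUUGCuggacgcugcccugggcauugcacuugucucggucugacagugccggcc

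Levels of the 9 arms spread from 0 counts to 1697 scaled CPM, although their hairpins come from only 3 clusters. Scaled CPM is edgeR's CPM with the library total corrected by the TMM method, so that libraries of unequal total and makeup can be compared. Levels are given as scaled CPM. They were not divided by length, since the sequences shown are 21 to 24 bases long. 6 of the 9 arms had at least 10 counts in each of the 4 libraries and were tested, and 3 did not reach that minimum in any library. Together the 9 arms made up 0.326% (Rx-Dicer 1), 0.410% (Rx-Dicer 2), 0.306% (control 1) and 0.215% (control 2) of all counts kept. The 6 mates made up 7.42% and 8.65% in mutants and 4.52% and 5.05% in controls. Of the 5p counts of the miR-17 cluster, the arms described here held 2.52% to 2.91%, compared with 12.3% to 14.4% in the miR-106a cluster and 4.70% to 10.7% in the miR-106b cluster.

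**Figure D1:**
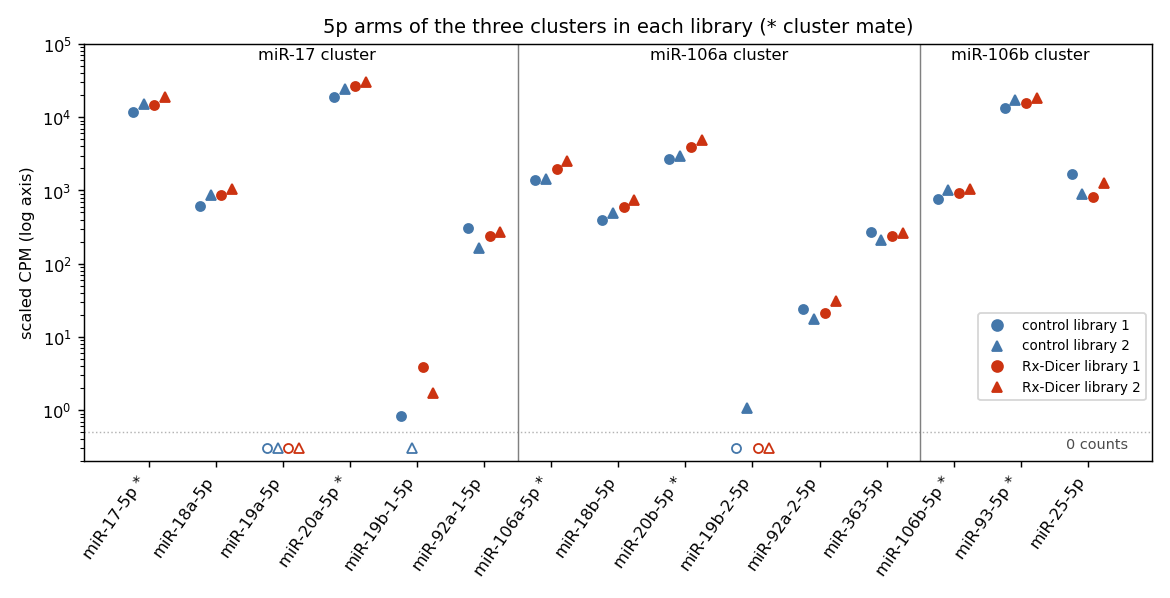
Scaled CPM (log axis) of the 5p arms of each cluster in the 4 libraries, in the order of the hairpins, with cluster mates marked by an asterisk and open symbols for 0 counts. miR-20a-5p lies between 18733 and 30583, while miR-19a-5p from the same transcript is at 0 in each library.

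In controls the order of mean level was miR-25-5p, miR-18a-5p, miR-18b-5p, miR-363-5p, miR-92a-1-5p and miR-92a-2-5p. Some neighbours in this order were not distinct. miR-25-5p was above miR-18a-5p in 3 of 4 libraries, and miR-363-5p above miR-92a-1-5p in 2 of 4, so these pairs did not differ beyond their spread. miR-18a-5p was above miR-18b-5p in 4 of 4 libraries, although their ranges overlapped. The lowest value of miR-18b-5p, 389 scaled CPM, lay above the highest of miR-363-5p, 275, and the lowest of miR-92a-1-5p, 162, lay above the highest of miR-92a-2-5p, 30.7.

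No arm passed the test between genotypes. At an adjusted p under 0.05, 0 of the 6 arms tested were called, while 7 of all 274 miRNAs tested were (2.55%), all of them lower in mutants (quasi-likelihood test of edgeR, adjusted by Benjamini-Hochberg). Before adjustment, 1 of the 6 arms had a p under 0.05, compared with 26 of 274 miRNAs (9.49%). That arm was higher in mutants, as were 3 of 274 miRNAs (1.09%), and 0 of the 6 arms were lower, against 23 of 274 (8.39%). DESeq2's Wald test also called 0 of the 6 arms, against 11 of 274 miRNAs (4.01%). The median log2 fold change was 0.21 over the 6 arms, 0.35 over the 6 mates and 0.04 over all tested miRNAs. Each value is set against the rest of its library. The median of all tested miRNAs moved to 0.44 with total counts only and to 0.14 with upper-quartile scaling. It was −0.37 when the summed counts of 3 red-cell miRNAs were set equal between libraries, called equal red-cell miRNAs below. Most of that sum was miR-486a-5p. In bulk tissue, fewer cells that make a miRNA and less of it per cell cannot be told apart.

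**Figure D2:**
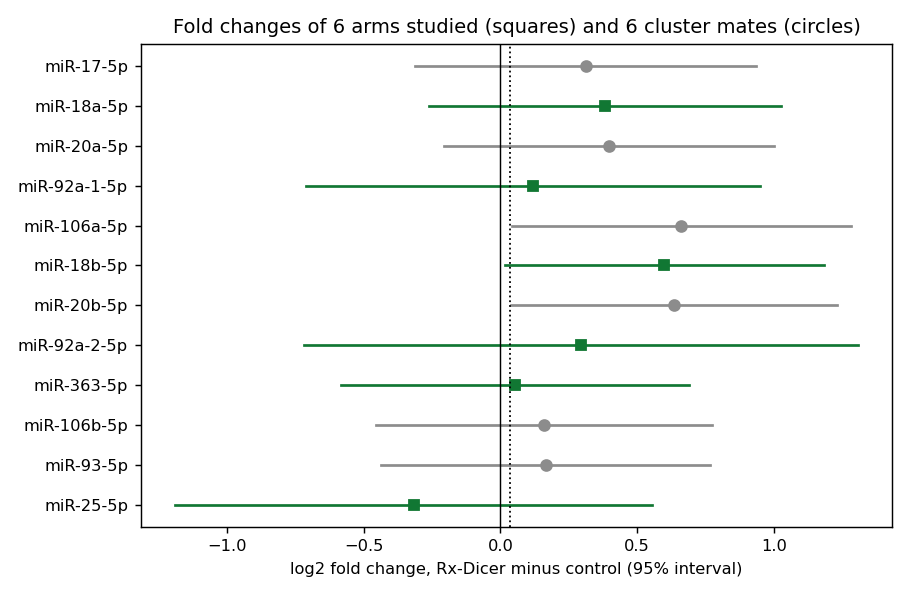
Log2 fold change of Rx-Dicer minus control for the 6 arms tested (squares) and the 6 mates (circles), with 95% intervals from edgeR's quasi-likelihood fit and the median of all tested miRNAs as a dotted line. The intervals of miR-18b-5p, miR-106a-5p and miR-20b-5p lie above 0 before adjustment, and the other 9 include it.

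Both miR-18 miRNAs, the guide strands of the group, lay above both controls in both mutants, although neither passed the adjusted test. For miR-18b-5p there were 459 counts in Rx-Dicer 1 and 428 in Rx-Dicer 2, and 468 in control 1 and 453 in control 2. As scaled CPM these were 603 and 729.8 in mutants against 389 and 491 in controls, so the lowest mutant value lay well above the highest control value. The means were 667 ± 89.4 and 440.0 ± 72.3 (SD, n = 2 libraries each). On the log2 scale the mutants were higher by 0.60 (standard error 0.25, 95% interval 0.02 to 1.18). Its edgeR adjusted p was 0.482 (unadjusted p = 0.0454). The change stayed positive under each scaling tried, and was 0.19 where red-cell miRNAs were set equal and 1.01 where total counts alone were used.

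miR-18a-5p, the autosomal copy, had 657 and 614 counts in mutants and 728 and 794 in controls. This was 863.6 and 1047 scaled CPM in mutants, compared with 605 and 860.8 in controls, so the groups were barely separated. The means were 955 ± 129.7 and 733 ± 181 (SD, n = 2 each). On the log2 scale the difference was 0.38 (standard error 0.28, 95% interval −0.26 to 1.03), with an edgeR adjusted p of 0.648. Its log2 fold change was −0.024 when the red-cell miRNAs were set equal. Groups that did not overlap were found for 2 of the 6 arms, both higher in mutants. Among all tested miRNAs 116 did not overlap (42.3%), 49 with mutants higher (17.9%) and 67 with mutants lower (24.5%).

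The 4 passenger arms that could be tested showed no such separation, and for each of them the mutant and control values overlapped. Values also overlapped for the mates miR-17-5p, miR-106b-5p and miR-93-5p, which are guide strands. The other 3 mates lay higher in both mutants, while 42.3% of all tested miRNAs did not overlap in either direction. A difference between guide and passenger arms was not tested. miR-25-5p, the passenger strand of miR-25 and the most abundant of the 9 arms in controls, had 624 and 741 counts in mutants and 2042 and 827 in controls. Its scaled CPM were 820.2 and 1264 in mutants and 1697 and 897 in controls. Control library 1 stood apart, and control library 2 lay between the mutant libraries. The means were 1042 ± 313 and 1297 ± 566 (SD, n = 2 each), with a log2 fold change of −0.32 (standard error 0.37, 95% interval −1.19 to 0.56) and an edgeR adjusted p of 0.815. Without control library 1 the log2 fold change was 0.25, and with total counts only it was 0.055, so its direction rested on that library and on the scaling.

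miR-92a-1-5p, the passenger strand of the last hairpin of the miR-17 cluster, showed the same split between controls. It had 182 and 161 counts in mutants and 373 and 149 in controls. Scaled CPM were 239 and 275 in mutants, between the control values of 310.0 and 162, and the means were 257 ± 24.96 and 236 ± 105 (SD, n = 2 each). The log2 fold change was 0.12 (standard error 0.35, 95% interval −0.71 to 0.95) with an edgeR adjusted p of 0.963, and it was −0.27 without control library 2 and −0.32 with equal red-cell miRNAs.

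The passenger arms of the miR-106a cluster were spread less. miR-363-5p, from the hairpin farthest downstream, had 184 and 156 counts in mutants and 331 and 197 in controls. Its scaled CPM of 242 and 266 in mutants lay between the control values of 275 and 214, and the means were 254 ± 17.1 and 244 ± 43.5 (SD, n = 2 each). This was a log2 fold change of 0.05 (standard error 0.27, 95% interval −0.58 to 0.69) and an edgeR adjusted p of 0.984. This value became negative without control library 2 (−0.12), without Rx-Dicer library 2 (−0.016) and with equal red-cell miRNAs (−0.37). miR-92a-2-5p had the fewest counts of the arms tested, with 16 and 18 in mutants and 29 and 16 in controls. The exact 95% Poisson interval of 16 counts is 9.15 to 26.0, and that of 29 counts is 19.4 to 41.6, which cover counting error only. Its scaled CPM were 21.0 and 30.7 in mutants and 24.1 and 17.3 in controls, with means of 25.9 ± 6.83 and 20.7 ± 4.78 (SD, n = 2 each). The log2 fold change was 0.30 (standard error 0.43, 95% interval −0.72 to 1.31) with an edgeR adjusted p of 0.856, and −0.13 with equal red-cell miRNAs.

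The 5p arms of the miR-19 hairpins were at or near the limit of detection. miR-19a-5p had 0 counts in each of the 4 libraries. miR-19b-1-5p had 3 counts in Rx-Dicer library 1, 1 in Rx-Dicer library 2, 1 in control library 1 and 0 in control library 2. miR-19b-2-5p had a single count, in control library 2. As 3 counts correspond to 2.49 to 5.12 scaled CPM, none of the 3 exceeded this floor in any library, and a difference between genotypes was not detectable at this depth. Their hairpins lie beside that of miR-20a or miR-20b, and these mates had 17936 to 22636 and 2731 to 3260 counts in the same libraries. Passenger arms of the miR-17 cluster therefore differed widely in control library 1, from 0 counts for miR-19a-5p to 373 for miR-92a-1-5p.

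Ratios to a mate within a library need no scaling between libraries. The mate was miR-20a-5p in the miR-17 cluster, miR-20b-5p in the miR-106a cluster and miR-93-5p in the miR-106b cluster. Counts on miR-18a-5p were 3.27% and 3.42% of those on miR-20a-5p in Rx-Dicer 1 and 2, and 3.23% and 3.51% in control libraries 1 and 2. Counts on miR-18b-5p were 15.2% and 15.1% of those on miR-20b-5p in mutants and 14.4% and 16.6% in controls. Both ratios were thus nearly the same in all 4 libraries, and for both the mutant values lay between the control values. The log2 ratio differed between genotypes by −0.0075 for miR-18a-5p and by −0.027 for miR-18b-5p (both p = 1 in an exact two-sided permutation test, in which 2 libraries against 2 cannot give a p under 0.33).

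The ratios of the passenger arms moved more between libraries. Counts on miR-25-5p were 5.22% and 6.84% of those on miR-93-5p in mutants, and 12.7% and 5.25% in controls. For miR-92a-1-5p the share of miR-20a-5p was 0.907% and 0.898% in mutants and 1.65% and 0.658% in controls. For miR-92a-2-5p the share of miR-20b-5p was 0.529% and 0.636% in mutants and 0.890% and 0.586% in controls. In each of these 3 control library 1 had the highest ratio. miR-363-5p was the only passenger arm whose ratio did not overlap between genotypes, with 6.08% and 5.51% of miR-20b-5p in mutants and 10.2% and 7.21% in controls. Its log2 ratio differed by −0.56 (p = 0.33 in an exact two-sided permutation test, the smallest p possible, and 1 after adjustment over the 7 ratios computed). The differences for miR-25-5p, miR-92a-1-5p and miR-92a-2-5p were −0.45, −0.21 and −0.31 (exact permutation p = 0.667, 1 and 0.667). Without control library 1 those of miR-25-5p and miR-92a-1-5p were 0.19 and 0.45, that of miR-92a-2-5p was −0.017 and that of miR-363-5p was −0.32. Without control library 2 that of miR-363-5p was −0.81.

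**Figure D3:**
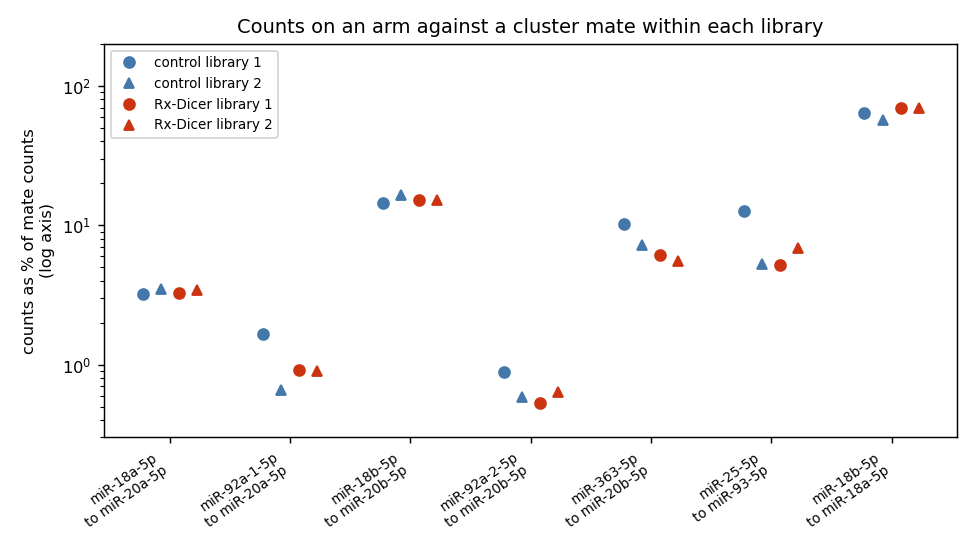
Counts on each of the 6 arms as a percentage of the counts on its cluster mate, and of miR-18b-5p to miR-18a-5p, in each library (log axis). The points for miR-18a-5p lie between 3.23% and 3.51%, while those for miR-25-5p run from 5.22% to 12.7% with control library 1 highest.

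The control libraries differed from each other in opposite directions for the passenger arms and the miR-18 arms. Scaled CPM in control library 1 were 1.92 times those in control library 2 for miR-92a-1-5p, 1.89 times for miR-25-5p, 1.39 times for miR-92a-2-5p and 1.29 times for miR-363-5p. For miR-18a-5p and miR-18b-5p the ratio was 0.703 and 0.792, on the other side of 1, as it was for the mates (0.748 to 0.959). A ratio as high as that of miR-25-5p was found for 13 of the 274 tested miRNAs (4.74%), and 1 as high as that of miR-92a-1-5p for 8 (2.92%). Between the mutant libraries the same ratio was 0.649 for miR-25-5p and 0.871 for miR-92a-1-5p, so neither arm was high in library 1 of both genotypes. miR-92b-5p, a passenger strand of the same name family encoded on chromosome 3 outside these clusters, had 2244 and 2737 scaled CPM in mutants and 4147 and 2336 in controls, a ratio between controls of 1.77.

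**Figure D4:**
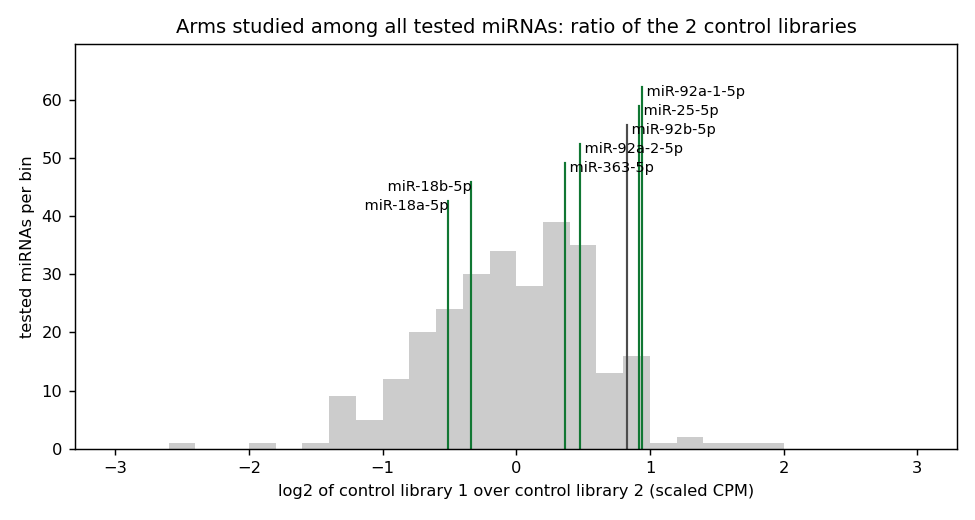
Histogram of the log2 ratio of scaled CPM in control library 1 to control library 2 for the 274 tested miRNAs, with the 6 arms tested (green lines) and miR-92b-5p (dark line). miR-25-5p and miR-92a-1-5p lie in the right tail, and the miR-18 arms lie left of 0.

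The main fit used TMM scaling in edgeR, for miRNAs with 10 or more counts in 2 or more libraries. In it, the only miRNAs higher in mutants at an unadjusted p under 0.05 came from the miR-106a cluster on chromosome X. There were 3 of them among 274 miRNAs (1.09%), miR-18b-5p, miR-106a-5p and miR-20b-5p, and none passed after adjustment. Some miRNAs outside that cluster had larger log2 fold changes and just missed the cut-off. They included miR-433-5p (0.97), miR-7033-5p (1.05), miR-2137 (1.03) and miR-6240 (1.03), with unadjusted edgeR p of 0.052, 0.053, 0.053 and 0.056. The number under the cut-off depended on the scaling, and was 6 with DESeq2's size factors, 9 with upper-quartile scaling and 51 with total counts only. It was 0 when the red-cell miRNAs were set equal, where miR-18b-5p, miR-106a-5p and miR-20b-5p also no longer passed. The rows fitted mattered too, with 0 at a minimum of 100 counts and 2 with precursor rows summed. There were 5 with all precursor rows and 7 with no count minimum. For miR-18b-5p the unadjusted edgeR p was 0.065 with at least 100 counts and 0.065 with precursor rows summed. It was 0.088 with all precursor rows, 0.18 with no count minimum and 0.038 with a replicate block. miR-106a-5p had 1938 and 2500 scaled CPM in mutants against 1373 and 1431 in controls, a log2 fold change of 0.66 (standard error 0.26). miR-20b-5p had 3979 and 4824 against 2709 and 2961, a log2 fold change of 0.63 (standard error 0.25). The edgeR adjusted p was 0.473 for both, and their log2 fold changes stayed positive under each scaling. The other arms of that cluster did not follow, with log2 fold changes of 0.05 for miR-363-5p and 0.30 for miR-92a-2-5p, but these differences between arms were not tested.

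miR-18b-5p, miR-106a-5p and miR-20b-5p each have a near-identical copy in the miR-17 cluster. The ratio of the copies was therefore taken within each library, a comparison chosen for the mates after the values were seen. miR-18b-5p had 69.9% and 69.7% of the counts of miR-18a-5p in mutants and 64.3% and 57.1% in controls. miR-20b-5p had 15.1% and 15.8% of the counts of miR-20a-5p in mutants and 14.5% and 12.1% in controls. miR-106a-5p had 13.3% of the counts of miR-17-5p in both mutant libraries, and 11.6% and 9.53% in controls. All 3 ratios were higher in both mutants than in both controls, with log2 differences of 0.20, 0.22 and 0.34 (each p = 0.33 in an exact two-sided permutation test). The 3 are not independent, as they come from the same pair of clusters. They were singled out by their changes in these same data, so the ratios in part restate those changes and add no separate support. The ratio of miR-92a-2-5p to miR-92a-1-5p was not taken. The copies differ at only 2, 2 and 1 of 23 bases, so that reads can have been counted on either. The paper used embryos of either sex, and the labels give no sex for the libraries. Its part in the ratios of these chromosome X copies was not tested.

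The miRNAs whose profile over the 4 libraries was most like that of miR-18a-5p, by the distance between centred log2 scaled CPM, were miR-20a-5p (distance 0.096), miR-377-5p (0.137) and miR-17-5p (0.158). For miR-18b-5p they were miR-20b-5p (0.150), miR-451a (0.172) and miR-20a-5p (0.204). For miR-25-5p they were miR-342-5p (0.206), miR-505-5p (0.217) and miR-92b-5p (0.252). The nearest profiles of the miR-18 arms thus included their own cluster mates, while those of miR-25-5p did not include miR-93-5p or miR-106b-5p.

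Markers of other cells in the dissected tissue were read in the same libraries. miR-9-5p, the miRNA typical of telencephalic neuroepithelium, was the most abundant miRNA in all 4. It had 240963 and 259155 scaled CPM in mutants against 339853 and 524056 in controls, lower in both mutants, where both miR-18 arms were higher. Its log2 fold change was −0.79, with an edgeR adjusted p of 0.344. The paper read a fall of miR-9 in these mutants, seen by in situ hybridization at later ages than E11.5, as loss of functional Dicer. The summed level of miR-451a, miR-486a-5p and of miR-144-5p, which mark red cells, was 7595 to 8504 scaled CPM in mutants and 5737 to 6362 in controls. Their sum was thus higher in both mutants, as were both miR-18 arms, and 0 of these 3 markers were at 0 counts. Most of the sum was miR-486a-5p, with 6517 and 7373 in mutants and 5089 and 5485 in controls. For miR-451a the values were 1059 and 1095 in mutants and 629 and 836 in controls. The values of miR-144-5p overlapped, with 18.4 and 35.8 in mutants and 19.1 and 41.2 in controls. The sum of 3 mesenchymal miRNAs was 11065 to 11478 in mutants and 4277 to 10673 in controls, with the low value in control library 1. Sums over neuronal miRNAs (3 of 4 names found) were 258 to 293 in mutants and 362 to 458 in controls. Over an endothelial miRNA they were 244 to 431 and 253 to 403, over 4 Hox-linked miRNAs 524 to 564 and 591 to 705, and over 2 eye miRNAs 92.1 to 98.6 and 145 to 165. Members of these lists did not all go the same way. Lower in both mutants were miR-124-5p, miR-128-2-5p, miR-10b-5p, miR-196b-5p and miR-204-5p. The values of miR-128-1-5p, miR-10a-5p and miR-196a-5p overlapped. The eye miRNA miR-211-5p was slightly higher in both mutants, with 10.5 and 10.2 against 9.14 and 9.76. By the paper, most mammalian miRNAs need Dicer to mature. In cells that lost Dicer, the level of a marker that needs it need not follow the number of those cells. Which of the cell types marked here had lost Dicer was not tested. The part of these cells in the miR-18 levels and in the split between the control libraries was not tested.

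**Figure D5:**
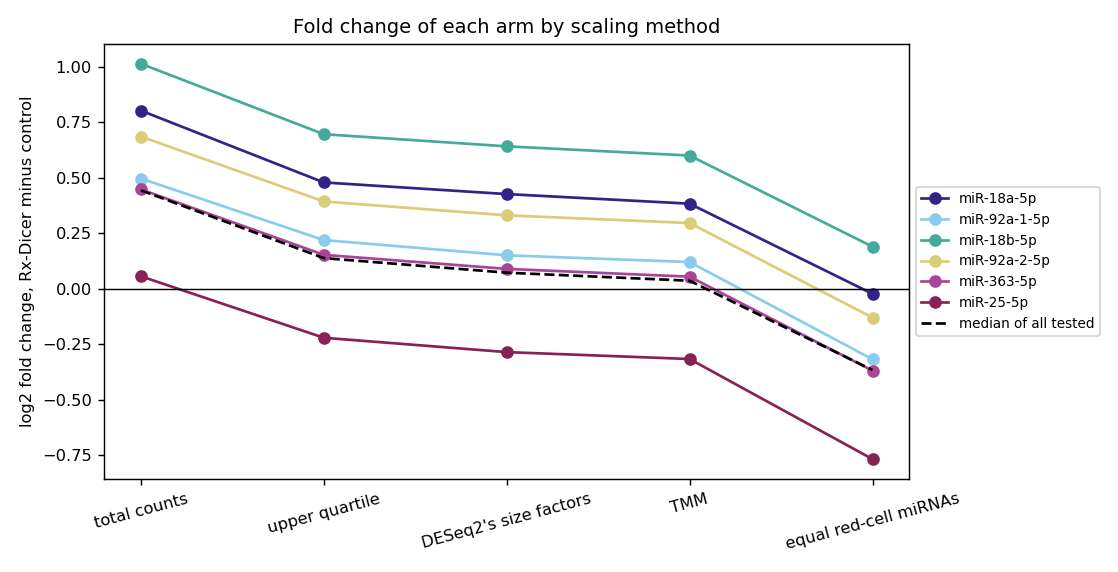
Log2 fold change of Rx-Dicer minus control for each of the 6 arms under each scaling, with the median of all tested miRNAs as a dashed line. The lines are nearly parallel, and miR-18b-5p is highest and miR-25-5p lowest under each scaling.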

How the data were processed

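Small RNA of 4 libraries was sequenced in 75-base single-end reads. The authors used miRDeep2 against mm10 and miRBase, and the deposited counts are raw read counts, a row for each precursor of a mature miRNA (1211 rows per library), with no normalization. The version of miRDeep2 and its settings for mismatches and shared reads are not given in the sources used here. Reads were checked with FastQC 2.6.14, per the labels.

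Where a mature miRNA had several precursor rows, that with most counts was kept. A miRNA was tested if 2 or more libraries held 10 or more counts, which left 274, and these were tested with edgeR 4.0.16 (quasi-likelihood test, TMM, genotype only, R 4.3.3), with p-values adjusted by the Benjamini-Hochberg method over all of them and a threshold of 0.05. Standard errors are the log2 fold change divided by the square root of F. Ratios had 0.5 added to each count, and profile distances used log2(scaled CPM + 1). The study's own test, DESeq2's Wald test (DESeq2 1.42.0), was an alternative. The other alternatives were other scalings, count minimums and uses of precursor rows, a replicate block, and each library left out. On simulated counts for this comparison (274 miRNAs, 20 sets, 20 miRNAs changed 4-fold), edgeR recovered 82.0% of the changed miRNAs with 4.93% false calls. The simulation gave each miRNA the same dispersion. The largest fold change of an arm was 1.51 (miR-18b-5p), and the recovery of changes of that size was not simulated.

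Named miRNAs were the 9 arms, their 6 mates, miR-92b-5p, the nearest 3 profiles of miR-18a-5p, miR-18b-5p and miR-25-5p, and the red-cell miRNAs. The arms and lists were chosen with earlier results of these data known. Sequences are from RefSeq (GRCm38.p6), and host transcripts from GENCODE M21. No library was a copy of another.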

Additional observations from a re-analysis of the deposited data

How the results depend on the processing

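The count of arms called between genotypes was 0 in the main comparison and in each of the 14 alternatives, and the count of all miRNAs called higher was likewise 0 in each (3 at an unadjusted p under 0.05 in the main comparison, 51 with total counts only, and 5 with DESeq2's Wald test). With 2 libraries per genotype, this count does not show that the levels were alike. All miRNAs called lower numbered 7 in the main comparison, 4 with DESeq2's size factors, 0 with total counts only, 3 with upper-quartile scaling, 11 under equal red-cell miRNAs, 11 by the Wald test of DESeq2, 14 with no count minimum, 14 rows with all precursor rows, and 0 to 6 with each library left out. A fit without a library has a lone library in a genotype, which is assumed to vary like the other genotype.

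Of 83 fold changes of the 6 arms under the alternatives, 72 kept direction and side of the threshold and 11 reversed. With equal red-cell miRNAs the log2 fold change was −0.024 for miR-18a-5p, −0.32 for miR-92a-1-5p, −0.13 for miR-92a-2-5p and −0.37 for miR-363-5p, and for the mates −0.10 for miR-17-5p, −0.011 for miR-20a-5p, −0.25 for miR-106b-5p and −0.24 for miR-93-5p. With total counts only it was 0.055 for miR-25-5p. With no count minimum it was −0.034 for miR-92a-1-5p, −0.11 for miR-363-5p and −0.0042 for miR-106b-5p. When libraries were left out in turn, miR-25-5p ranged from −0.70 to 0.25, miR-92a-1-5p from −0.27 to 0.71, miR-363-5p from −0.12 to 0.29, and the log2 fold change was 0.19 to 0.66 for miR-18a-5p and 0.46 to 0.78 for miR-18b-5p. The scalings move all miRNAs together. The cause of the other reversals was not tested.

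In the fit with a replicate block, 0 miRNAs were called (before adjustment, 20 were lower and 4 higher), and the log2 fold change was 0.40 for miR-18a-5p, 0.60 for miR-18b-5p (adjusted p = 0.501 in edgeR) and −0.28 for miR-25-5p. Deviations of same-numbered libraries had a correlation of 0.085 across 274 miRNAs, and the labels name nothing that they share but the number.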
